A study of Mus musculus with 7 samples.

Results

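Genes of the pericentral zone were followed across 7 mouse liver arrays. They were Glul, Oat, Cyp2e1, Cyp1a2, Ahr, Cldn2 and Ctnnb1, taken by symbol from probe sets that carry exactly 1 gene name. All 7 genes were on the array, among 8251 named genes, with 9 probe sets between them. Each of the 7 had a mean signal above the limit for testing (0.4 of the array's trimmed mean, or 200.1), as did 4481 genes in all.

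The samples formed 1 group, so the question was whether these genes moved together from array to array. The animals were female mice that looked normal (genotype +/+ or +/df in the source names), ate standard pelleted food ad libitum and were killed at 24 to 26 months of age. The labels disagree, since the description field of the same samples calls them Ames dwarf mice (df/df). The group is treated here as the source names and titles give it. Titles number the samples 1, 2, 3, 4, 6, 7 and 8, and no label says outright that each RNA came from a separate animal. The spread between arrays may therefore be partly technical, and every p-value below refers to that spread. Total liver RNA was hybridised, so fewer cells of a type and less RNA per cell cannot be told apart, and the place of a transcript in the lobule was not measured.

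The liver lobule runs from the portal tract, where blood enters, to the central vein, where it leaves. Hepatocytes next to the central vein receive Wnt ligands that stabilise beta-catenin, and they express a programme of glutamine synthesis, ammonia scavenging and cytochrome P450 metabolism. Periportal hepatocytes carry more of the urea cycle and of gluconeogenesis. Among the 7 genes, Glul encodes glutamine synthetase and Oat ornithine aminotransferase, both of nitrogen metabolism. Cyp2e1 and Cyp1a2 encode cytochromes P450 that oxidise small molecules and aromatic amines. Ctnnb1 encodes beta-catenin, the effector of the Wnt signal, and Ahr encodes the aryl hydrocarbon receptor, a ligand-activated transcription factor of which Cyp1a2 is a classical target. Cldn2 encodes claudin 2, a tight junction protein that forms paracellular channels.

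Signals of hepatocyte genes fitted the tissue name. Alb, the gene of serum albumin, had a mean signal of 31853 ± 3080 (SD, n = 7), and the transport protein gene Ttr had 7180 ± 399. The biliary keratin genes Krt7 and Krt19 and the biliary adhesion gene Epcam summed to between 38.8 and 111 on an array, and Krt7 and Epcam lay below the floor of 50.04 on all 7. Genes of Kupffer cells (Clec4f, 1572 ± 198), endothelium (Eng, 2291 ± 395) and stellate cells (Dcn, 4677 ± 676) were also measured, as whole liver holds these cells. These were the brightest markers of their lists. Of the 5, 5 and 4 markers on the array, 3 of each list passed the limit for testing. Among those under it were Adgre1 of Kupffer cells (mean 156), Pecam1 of endothelium (149) and Des of stellate cells (185). Some skeletal muscle genes stood apart on replicates 1 and 2. Acta1 (skeletal actin) had 5991 and 2034 there, against 10.5 to 100.4 on the other arrays. The muscle gene Ckm, whose mean of 173 was under the limit for testing, had 144 and 170 there, against 147 to 210. Bacterial spike-in controls, 9 probe sets added with the sample, split the arrays into a set of 4 with higher signals (replicates 1 to 4, mean log2 signal 10.64 to 10.97) and a set of 3 with lower signals (replicates 6 to 8, 10.20 to 10.24).

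The promoters of the 3 metabolic genes that followed each other most closely, described further on, are shown first. They are the 250 bases before the annotated start, read in the direction of the gene from RefSeq on GRCm38.p6. Oat lies on the minus strand (chr7:132576399-132576648), as does Cyp1a2 (chr9:57683656-57683905), and Cyp2e1 lies on the plus strand (chr7:140763569-140763818). Capitals mark matches on either strand to TATAAA, the TATA box, to CCAAT, the CCAAT box, to CTTTGAA and its variant CTTTGAT, cores read by TCF/LEF factors, to GCGTG, the core read by Ahr with Arnt, to GTTAAT, which is part of an HNF1 site, and to GGGCGG, the GC box.
Oat: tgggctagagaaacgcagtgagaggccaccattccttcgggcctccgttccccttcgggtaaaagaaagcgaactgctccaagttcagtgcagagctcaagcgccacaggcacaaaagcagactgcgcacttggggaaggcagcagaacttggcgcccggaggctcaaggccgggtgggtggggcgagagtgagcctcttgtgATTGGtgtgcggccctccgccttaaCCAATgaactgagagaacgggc
Cyp1a2: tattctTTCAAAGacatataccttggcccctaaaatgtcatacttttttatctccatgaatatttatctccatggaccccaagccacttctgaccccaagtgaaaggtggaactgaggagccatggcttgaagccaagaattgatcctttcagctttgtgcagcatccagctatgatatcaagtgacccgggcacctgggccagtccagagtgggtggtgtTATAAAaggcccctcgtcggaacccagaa
Cyp2e1: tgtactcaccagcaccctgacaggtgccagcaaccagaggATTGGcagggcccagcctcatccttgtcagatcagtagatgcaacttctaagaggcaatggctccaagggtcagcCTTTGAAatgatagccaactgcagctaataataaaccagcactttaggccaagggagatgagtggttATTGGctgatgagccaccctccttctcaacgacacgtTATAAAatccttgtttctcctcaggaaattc

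Both P450 promoters held a TATAAA match, which began at position -29 from the start in Cyp1a2 and at -31 in Cyp2e1. Each also held 1 CTTTGAA match, on the opposite strand in Cyp1a2. Oat had neither motif in this window, and its matches were a pair of CCAAT letters, 1 on each strand. Cyp2e1 also held CCAAT matches, on the opposite strand from positions -210 and -68, while Cyp1a2 had no such match. TATAAA occurred in 12.4% of 32851 promoter windows of the same length, CTTTGAA in 4.46% and CCAAT in 33.8%. None of the 3 windows held CTTTGAT (in 3.21% of all windows), GCGTG (28.2%), GTTAAT (6.43%) or GGGCGG (32.7%). These matches describe letters, and binding was not measured. RefSeq entries were matched for 6 of the 7 genes, all but Ahr.

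Glutamine synthetase gave the least settled picture of the 7. By its brighter probe set, Glul had a lowest signal of 774 on replicate 2, a median of 1082 and a highest of 1339 on replicate 6, with a mean of 1066 ± 170 (SD, n = 7). By its second probe set the lowest signal was 764 on replicate 3, the median 858 and the highest 970 on replicate 1, with a mean of 882 ± 78.8. The arrays thus stood in another order by each probe set, and the brighter one was designed under relaxed rules, as its suffix _r_at shows. Across arrays the probe sets gave r = -0.139 (two-sided exact permutation p = 0.793) and rho = -0.43 (exact p = 0.354). Any statement on Glul below therefore names its probe set where it matters.

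The Glul signal of the brighter probe set was low where the muscle genes Acta1, Atp2a1 and Myl1 were high. Ckm was not high on those arrays. Replicates 2 and 1 had its lowest values, 774 and 971, and the summed signal of the 5 muscle markers ranged from 635 to 8222 over the arrays. None of the 5 was below the floor on every array. The 3 that passed the limit for testing, Acta1, Atp2a1 and Myl1, had r with Glul of -0.74, -0.78 and -0.70. Glul also followed the ratio of 3' to 5' actin probes, a sign of RNA quality, with r = 0.764 (exact permutation p = 0.0262, adjusted p = 0.275 over 21 relations) and rho = 0.75 (exact p = 0.0663). Without replicates 1 and 2, the farthest from the median of that ratio, r was -0.0045. The part of muscle RNA or of RNA quality in the Glul values was not tested.

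Oat ran from 7763 on replicate 6 through a median of 8511 to 11509 on replicate 3, with a mean of 9084 ± 1338 (SD, n = 7). Replicates 3 and 7 were high, and the other 5 arrays lay between 7763 and 9107. A second Oat probe set, also with the suffix _r_at, read between 8.20 and 64.7 and was below the floor on 6 of 7 arrays, so it gave no level for the gene.

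Cyp2e1 had 22377 on replicate 6, a median of 24779 and 29736 on replicate 3, and the 3 lowest values were those of replicates 6, 8 and 7. Its mean was 25440 ± 2768 (SD, n = 7). Cyp1a2 had 10705 on replicate 8, a median of 12259 and 15719 on replicate 7, with a mean of 13007 ± 2045. Cyp1a2 was high on replicates 7, 3 and 1, and low on replicates 8 and 6.

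The receptor gene Ahr had 341.6 on replicate 6, a median of 409 and 453 on replicate 8, and a mean of 406 ± 36.2 (SD, n = 7). Ctnnb1 had 2388 on replicate 1, a median of 2694 and 3475 on replicate 8, with a mean of 2808 ± 366. Both genes were thus highest on replicate 8.

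Cldn2 varied more than the other 6 genes. It had 71.8 on replicate 4, a median of 364 and 688 on replicate 3, a 9.59-fold range. Replicate 4 stood apart, since the next lowest array, replicate 2, had 315. The mean was 391 ± 187 (SD, n = 7).

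**Figure D1:**
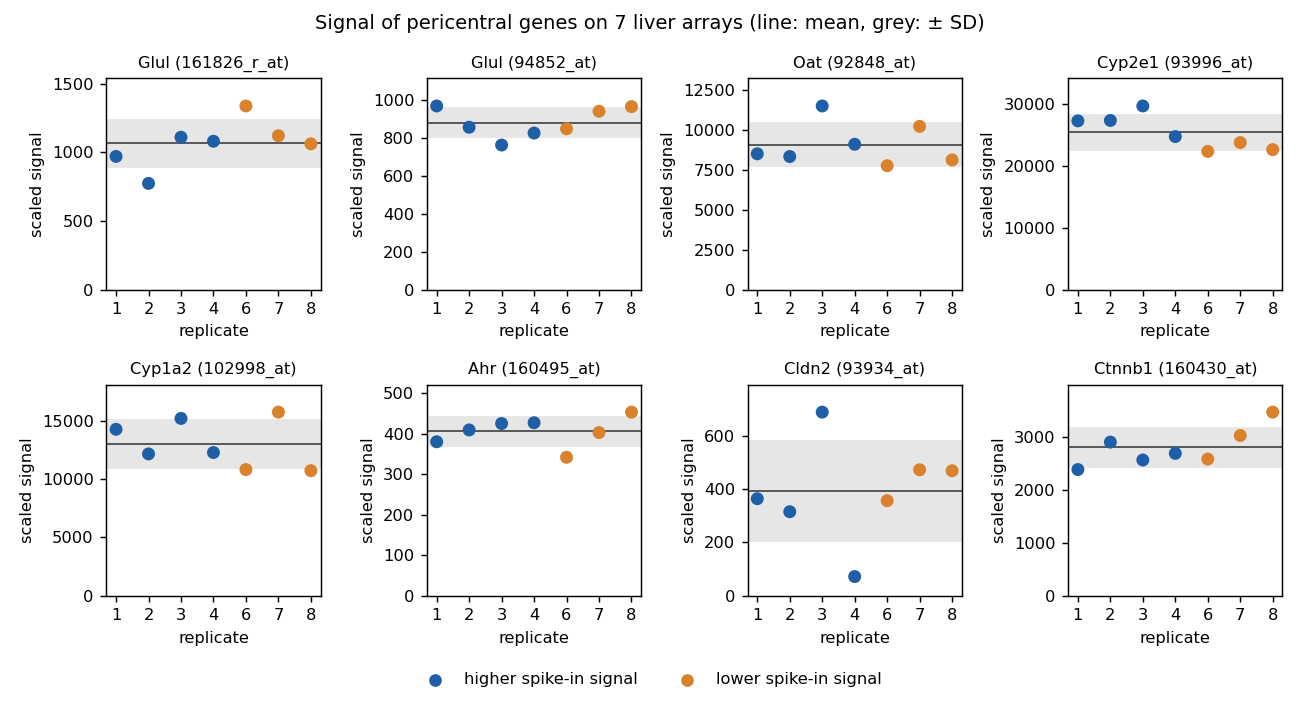
Scaled signal (y axis, linear, from 0) of the 7 pericentral genes on each array (x axis, replicate number), with both probe sets of Glul, the mean as a line, ± SD over 7 arrays as a grey band and the spike-in set as colour. Cldn2 drops to 71.8 on replicate 4, while the Glul probe sets order the arrays differently.

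No pericentral gene passed the test of spread. With limma, each gene's variance was set against that of all tested genes of like level, and 0 of 7 had an adjusted p under 0.05, against 0 of 4481 tested genes (0.0%). At an unadjusted p under 0.05 the count was 1 of 7, Cldn2, and 301 of all tested genes were past it (6.72%). A single gene of 7 does not set the group apart from that share.

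The SD of log2 signal was 1.04 for Cldn2 (limma adjusted p = 0.265), and 15 genes had a larger ratio of measured to modelled SD. Without replicate 4 the SD was 0.41, with an adjusted limma p of 0.793. For Glul the SD was 0.24, for Cyp1a2 0.23 and for Oat 0.20. Ctnnb1 had 0.18, Cyp2e1 0.16 and Ahr 0.13, where the median of all tested genes was 0.18. Adjusted limma p-values of these 6 genes were between 0.935 and 0.993. A single array accounted for much of several of these SDs, since leaving out replicate 3 gave 0.14 for Oat, leaving out replicate 2 gave 0.15 for Glul, and leaving out replicate 6 gave 0.09 for Ahr.

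Joint movement was tested pair by pair and was not detectable in any pair of the 7 genes after correction, while the group as a whole was not tested. Over their 21 pairs the mean r of log2 signals was 0.098 and the median 0.093, with 13 pairs above 0. All 10037440 pairs of tested genes had a mean r of 0.001, with quartiles of -0.31 and 0.32. By two-sided exact permutation tests over all pairings of the arrays, 0 of 21 pairs had an adjusted p under 0.05, 1 pair had an unadjusted p under 0.05, and the same counts held for rho. An r of at least 0.75 in size was reached by 1 of 21 pairs, or 4.76%, against 5.55% of all pairs of tested genes, so the share was near the background. The smallest p such a test can give is 0.000397.

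**Figure D2:**
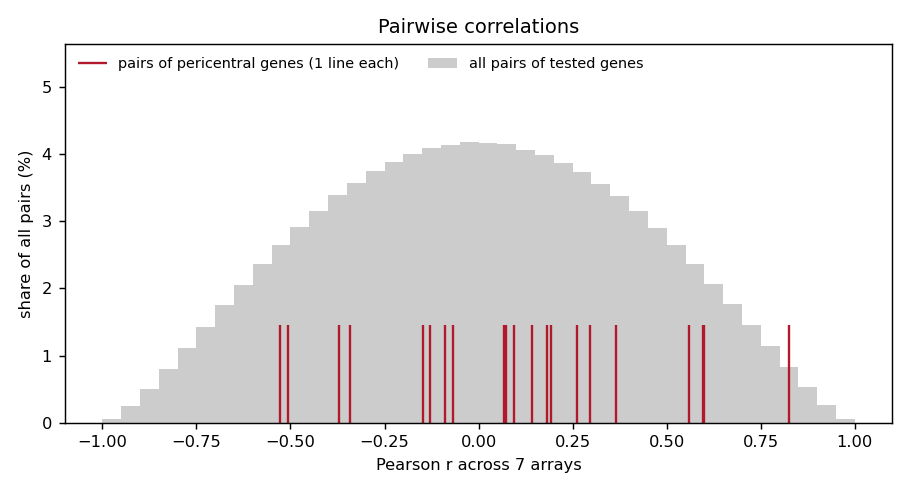
Share of all pairs of tested genes (grey bars, y axis in percent) by Pearson r across 7 arrays (x axis), with a red line at the r of each of the 21 pairs of pericentral genes (line height has no meaning). The lines run from -0.53 to 0.82 and spread over most of the grey distribution.

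The closest pair was Oat and Cyp1a2, which had r = 0.825 (exact permutation p = 0.0210, adjusted p = 0.442 over 21 pairs). Its rho was 0.893 (exact p = 0.0123, adjusted p = 0.258). Both genes were high on replicates 3 and 7 and low on replicates 6 and 8. Without replicates 3 and 7 r was 0.579, and it stayed between 0.773 and 0.928 when each array was left out in turn. With the mean of each spike-in set removed r was 0.809. The pair failed the correction for multiple tests.

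Cyp2e1 stood with these genes less closely. It had r = 0.596 with Cyp1a2 (exact permutation p = 0.157, adjusted p = 0.865) and rho = 0.50 (exact p = 0.267). With Oat it had r = 0.559 (exact permutation p = 0.197, adjusted p = 0.865) and rho = 0.64 (exact p = 0.139). Single arrays decided both values. Without replicate 7, Cyp2e1 and Cyp1a2 had r = 0.920, and without replicate 3 they had 0.436. Cyp2e1 and Oat had 0.106 without replicate 3. Quantile normalization, which forces all arrays to 1 distribution, gave 0.13 with Cyp1a2 and -0.04 with Oat. It also narrowed the log2 SD of Cyp2e1 from 0.155 to 0.058. The mean r of the 3 pairs among Oat, Cyp2e1 and Cyp1a2 was 0.660, a trio singled out after its values were seen.

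Ahr and its target Cyp1a2 had r = 0.073 (exact permutation p = 0.898, adjusted p = 0.898) and rho = -0.21 (exact p = 0.662). Leaving out replicate 6 gave r = -0.62 and leaving out replicate 8 gave 0.499, so the sign rested on single arrays. Ahr was instead nearest to Ctnnb1 among the 7, with r = 0.598 (exact permutation p = 0.153, adjusted p = 0.865) and rho = 0.50 (exact p = 0.267). That value was 0.329 without replicate 8 and 0.876 with spike-in set means removed.

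The r of Ctnnb1 with the metabolic genes was below 0 in each case, though not under each alternative. It was -0.15 with Oat, -0.34 with Cyp1a2, -0.51 with Cyp2e1 and -0.13 with Glul, with adjusted exact permutation p-values of 0.865 and 0.898. Leaving out replicate 8 turned the sign with Oat (0.168) and Cyp1a2 (0.104), and leaving out replicate 6 turned it with Glul (0.050). With set means removed, r was -0.05 with Cyp2e1 and -0.69 with Glul. Glul also ran against Cyp2e1, with r = -0.53 (exact permutation p = 0.225, adjusted p = 0.865), and against Ahr with r = -0.37 (exact p = 0.394). Its r with Cyp2e1 ran from -0.83 without replicate 3 to -0.31 without replicate 6 and was -0.07 with set means removed, and its r with Ahr turned to 0.302 without replicate 6. By the second Glul probe set, r with Cyp2e1 was -0.45, with Oat -0.46 and with Ctnnb1 0.391, and the smallest exact p of that probe set with the other 6 genes was 0.297.

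**Figure D3:**
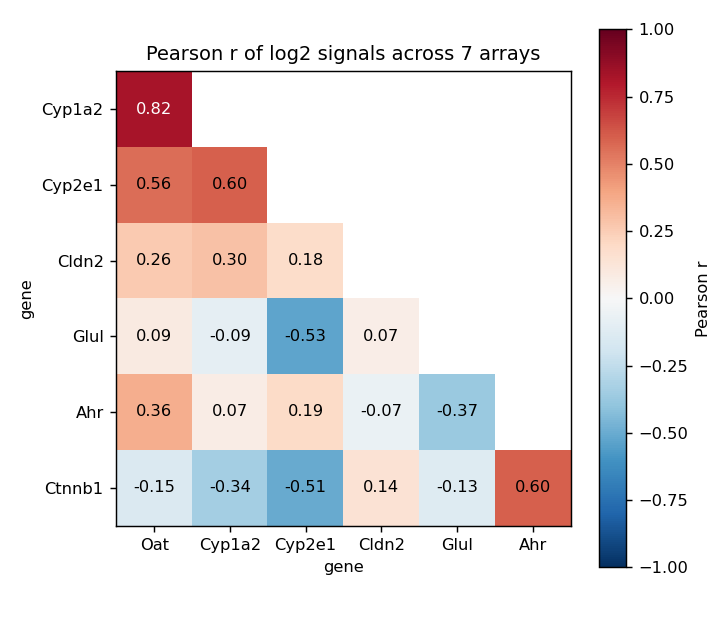
Pearson r of log2 signals across 7 arrays for each pair of pericentral genes (colour and printed value, scale from -1 to 1). The cells among Oat, Cyp1a2 and Cyp2e1 run from 0.56 to 0.82. Cldn2 and Ahr are also above 0 with each of these genes, at 0.07 to 0.36. Most cells of Ctnnb1 are below 0.

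The spike-in set went with Cyp2e1. The 4 arrays of the higher set had 27307 ± 2025 and ranged from 24779 to 29736, against 22951 ± 757 and 22377 to 23808 on the 3 arrays of the lower set. The sets did not overlap, as was the case for 7.34% of the 4481 tested genes. Their log2 difference was 0.25 (two-sided exact permutation p = 0.0571, adjusted p = 0.4 over 7 genes, smallest possible p = 0.0286). The other 6 genes overlapped between the sets.

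Across arrays, Cyp2e1 followed the spike-in level with r = 0.881 (exact permutation p = 0.0228, adjusted p = 0.275 over 21 relations) and rho = 0.75 (exact p = 0.0663). Without replicates 7 and 8 r was 0.856, and with set means removed it was 0.433. The relation of other bright genes to the spike-in level was not tested, but the brightest genes of the array moved with Cyp2e1. Its r with each of the 10 brightest other genes, among them Alb, Apoe, Apoc1 and Plg, was at least 0.75 in 10 of 10, from 0.797 (Plg) to 0.991 (Apoc1). After quantile normalization, Apoe (0.884) and Apoc1 (0.895) were the only ones of the 10 still at 0.75 or more. The sign turned for 4 of 10, with r = -0.80 for Alb, -0.82 for Serpina1b, -0.34 for Serpina1c and -0.64 for Plg. That step also narrowed the spread, with a log2 SD of 0.028 for Alb (0.135 before) and 0.058 for Cyp2e1 (0.155 before). The r after it thus rest on small differences between arrays. The part of a shared response of very bright probe sets in the Cyp2e1 values was not tested.

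**Figure D4:**
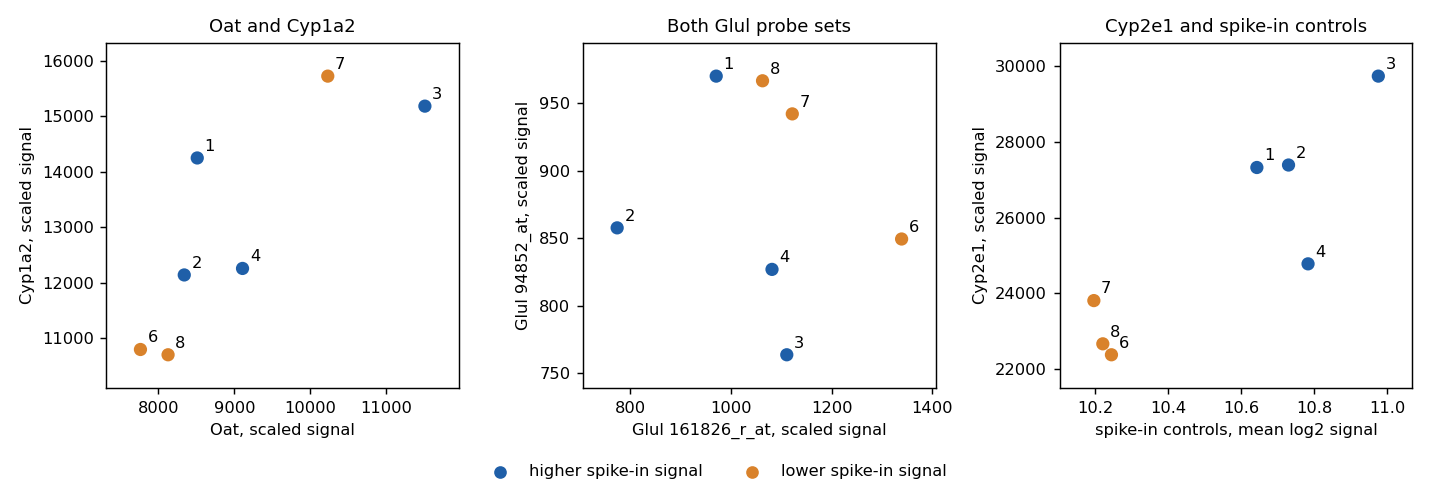
Scatter of scaled signals per array (numbers give the replicate, colours the spike-in set) for Oat and Cyp1a2, for the 2 probe sets of Glul, and for Cyp2e1 against the mean log2 signal of the spike-in controls. Oat and Cyp1a2 are high on the same arrays (r = 0.825), the Glul probe sets are not (r = -0.139), and Cyp2e1 is higher on all 4 arrays of the higher spike-in set.

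Other genes of the pericentral zone were taken from a list of 55, of which 34 were on the array and 30 passed the limit for testing. Signals of different probe sets are not on 1 scale and give no order of transcript levels. The probe sets with the highest signals were those of Gstm1, a glutathione transferase gene whose probe set can also read related genes (19559 ± 1476, SD, n = 7), Aldh1a1, a retinal dehydrogenase gene (17037 ± 1741), Akr1c6, a hydroxysteroid dehydrogenase gene, and Rgn, which encodes regucalcin. With limma, 0 of the 30 had an adjusted p under 0.05 and 6 an unadjusted p under 0.05, with a median log2 SD of 0.19. Beside this and the list counts that follow stands the share of all tested genes past the unadjusted threshold, 6.72%, and with these list sizes nothing particular to a list is read from its count. The largest SDs were those of Lhpp, a phosphatase gene (1.27, limma adjusted p = 0.304), and Csad, which encodes an enzyme of taurine synthesis (0.58, limma adjusted p = 0.448). For 26 tested genes of a periportal list of 40, the counts were 0 and 3 with a median of 0.16.

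The mean r of Oat, Cyp2e1 and Cyp1a2 was higher with the other pericentral genes than with the periportal ones. For these 3 genes, the counts of genes with an r of at least 0.75 in size followed no 1 order. Oat had a mean r of 0.249 with the 30 pericentral genes, 23 of them above 0, and 0.055 with the 26 periportal genes, 16 of them above 0. For Cyp2e1 the means were 0.265 and 0.069, with 22 of 30 and 15 of 26 above 0. For Cyp1a2 they were 0.186 and 0.034, with 19 of 30 and 12 of 26 above 0. Among all pairs of tested genes, 50.0% had an r above 0. An r of at least 0.75 in size, of either sign, was reached by 5 of 30 pericentral and 4 of 26 periportal genes with Oat. The counts were 4 and 4 with Cyp2e1, and 2 and 5 with Cyp1a2. Of all other tested genes, 5.65% reached that size with Oat, 6.03% with Cyp2e1 and 6.05% with Cyp1a2. With these list sizes nothing particular to a zone is read from the counts. The 4 hepatocyte markers tested, which mark no zone as a group and include the periportal gene Alb, had a higher mean r with these 3 genes (0.442) than the 30 pericentral genes had (0.233). The mean r of each of these 3 genes with all other tested genes lay between -0.02 and 0.01. Ctnnb1 had -0.14 and -0.05, with 8 of 30 and 11 of 26 above 0, while Glul had -0.04 and -0.03. Ahr had 0.095 and 0.014, and Cldn2 had 0.046 and -0.05. These are descriptions over genes that share the same 7 arrays, and no test was made of the difference between the lists.

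Replicate 3 carried much of that pattern. Of the 30 other pericentral genes 12 were highest on replicate 3, as were 5 of 26 periportal genes and 14.4% of all tested genes. Without replicate 3, the mean r with the pericentral and periportal genes was 0.081 and 0.0096 for Oat, 0.148 and 0.055 for Cyp2e1, and 0.096 and -0.0054 for Cyp1a2. After quantile normalization these means were 0.149 and -0.03 for Oat, 0.058 and -0.14 for Cyp2e1, and 0.056 and -0.08 for Cyp1a2. Replicate 7, where Cyp1a2 was highest, went the other way. On it 10 of the 30 pericentral genes were lowest, as were 4 of 26 periportal genes and 13.6% of all tested genes. Without replicate 7, the mean r with the pericentral genes was 0.346 for Oat and 0.309 for Cyp1a2.

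**Figure D5:**
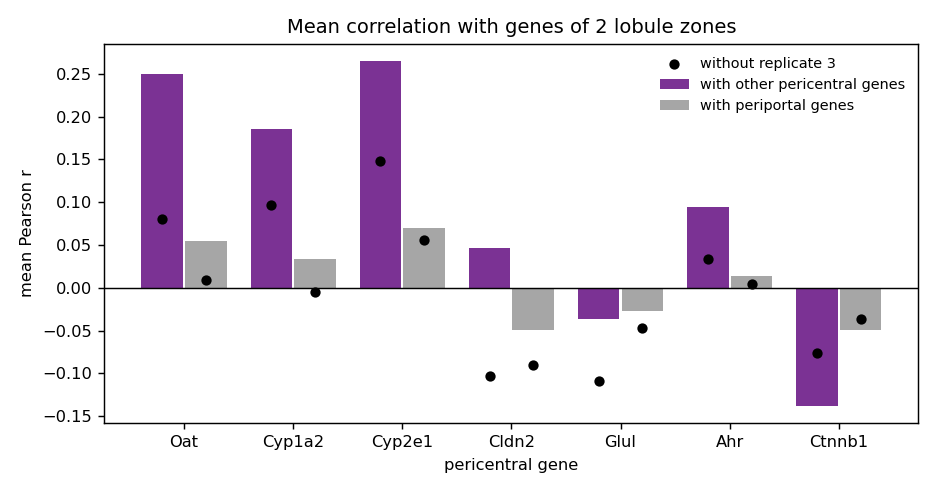
Mean Pearson r (y axis) of each pericentral gene (x axis) with 30 other pericentral genes (purple) and 26 periportal genes (grey), with the same means without replicate 3 as black points. For Oat the purple bar is at 0.249 and its point at 0.081.

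Single genes of both zone lists, named here after their values were seen, had an r of at least 0.75 in size with Oat, Cyp1a2 or Cyp2e1. Lect2, which encodes a hepatokine and is a known beta-catenin target in mouse liver, had r = 0.868 with Oat, and 0.704 without replicate 3. Akr1c6 had 0.835 with Oat, and the P450 genes Cyp2c29 and Cyp3a11 had 0.808 and 0.804. Without replicate 3 these were 0.595 for Akr1c6, 0.422 for Cyp2c29 and 0.558 for Cyp3a11. The periportal gene Cyp17a1, which encodes a steroid hydroxylase, had r = -0.85 with Oat, and it had 767 on replicate 3 against 2085 to 3779 on the other arrays. The periportal gene Ctsc, a lysosomal protease gene, had r = -0.84 with Oat. Without replicate 3, r with Oat was -0.572 for Cyp17a1 and -0.596 for Ctsc. The periportal genes Alb and Cps1, however, went with Oat, at r = 0.793 and 0.755, which were 0.444 and 0.361 without replicate 3. Ang, which encodes angiogenin, had r = 0.770 with Oat (0.591 without replicate 3) and 0.843 with Cyp1a2. Gstm2 ran against Cyp1a2 with r = -0.84. Periportal genes went with Cyp1a2 too, Igf1 at r = 0.839, Hal at 0.786, Pigr at 0.785 and Agxt at 0.753, while Ctsc had -0.82. Of the periportal genes with Cyp2e1, Alb had r = 0.917, Aass 0.801 and Cyp17a1 -0.80. Of the pericentral genes Akr1c6 had 0.842, Cyp2c29 0.790 and Rgn 0.755. After quantile normalization, r with Cyp2e1 was 0.215 for Akr1c6, 0.386 for Cyp2c29 and 0.212 for Rgn. For the periportal genes it was then -0.80 for Alb, 0.698 for Aass and -0.37 for Cyp17a1. Cyb5a, the gene of cytochrome b5, which passes electrons to P450 enzymes, had r = 0.906 with Cyp2e1 and 0.736 after quantile normalization. Cps1, the first enzyme of the urea cycle and a periportal gene, had r = 0.907 with Cyp2e1, and -0.39 after quantile normalization.

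By the sign of r, the Wnt pathway genes, which act up- and downstream of Ctnnb1, moved about as often with it as against it. Of a list of 62, 47 were on the array and 21 were tested, with 0 past the adjusted limma test and 1 at an unadjusted p under 0.05, the corepressor gene Tle1 (SD 0.67, limma adjusted p = 0.533). Their mean r with Ctnnb1 was -0.11, with 10 of 21 above 0. The highest signals were those of the kinase gene Gsk3a (3609 ± 339), Dvl1 (2320 ± 282), which encodes the adaptor dishevelled, and the kinase gene Csnk1a1 (1805 ± 164). An r of at least 0.75 in size with Ctnnb1 was reached by 3 of the 21, each below 0, and by 3.84% of all tested genes. They were the Wnt co-receptor genes Lrp5 (-0.95) and Lrp6 (-0.82) and the corepressor gene Tle3 (-0.79), named after their values were seen. With the array left out that weakened each most, r was -0.88, -0.76 and -0.55. Lrp5 had 274 on replicate 8, where Ctnnb1 was highest, and up to 374 on replicate 3. Axin1, also named after its values were seen, which encodes the scaffold of the complex that degrades beta-catenin, had r = -0.88 with Glul by the brighter probe set, and -0.64 without replicate 2.

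Genes of the catenin and adherens junction list numbered 12, with 11 on the array and 9 tested. With limma, 0 passed the adjusted test and 0 had an unadjusted p under 0.05. Ctnnd1, the gene of catenin delta 1, had the highest signal of them, 2946 ± 345 (SD, n = 7). The mean r of these genes with Ctnnb1 was -0.04.

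The partners and targets of Ahr were few on this array at a usable level, with 20 of 24 present and 7 tested. With limma 0 of the 7 passed the adjusted test and 0 had an unadjusted p under 0.05. Arnt, the protein partner with which Ahr binds DNA, had 293 on replicate 4, 386 on replicate 8 and a mean of 334 ± 34.4, and its r was 0.162 with Ahr and -0.59 with Cyp1a2. Gsta2, a glutathione transferase gene of the Ahr battery, had a mean of 2713 ± 564. The mean r of the 7 genes was -0.44 with Oat and -0.39 with Cyp1a2, with 0 of 7 above 0 for each, and -0.04 with Ahr. Of all pairs of tested genes 50.0% were above 0. Oat and Cyp1a2 followed each other (r = 0.825), so their counts are not independent. The genes share the same 7 arrays, and no test was made of these means or of their dependence on single arrays.

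Genes of glutamine, glutamate and ornithine metabolism, the setting of Glul and Oat, numbered 32, with 19 on the array and 13 tested. The highest signals were those of Arg1, which makes ornithine in the urea cycle (14377 ± 826, SD, n = 7), and the amino acid transporter gene Slc38a4 (11161 ± 1128). With limma, 0 passed the adjusted test and 1 had an unadjusted p under 0.05, the polyamine acetyltransferase gene Sat1 (SD 0.37, limma adjusted p = 0.663). Their mean r was 0.0022 with Glul and 0.040 with Oat.

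Of 20 claudin and tight junction genes, 11 were on the array and 3 were tested beside Cldn2. F11r, the gene of a junctional adhesion molecule, had 1051 on replicate 4 and 2409 on replicate 7 (SD 0.40, limma adjusted p = 0.569), the single gene of the 3 at an unadjusted p under 0.05, and 0 passed the adjusted test. Cldn3 had 1639 ± 236 (SD, n = 7) and Tjp1, which encodes a scaffold under the tight junction, had 563 ± 104. The mean r of the 3 with Cldn2 was 0.115.

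Regulators and redox partners of Cyp2e1 and Cyp1a2 numbered 16, with 13 on the array and all 13 tested. With limma, 0 passed the adjusted test and 3 had an unadjusted p under 0.05, the nuclear receptor genes Ppara, Hnf4a and Rxra. The highest signals were those of Cyb5a (12646 ± 1329, SD, n = 7) and Cebpa (11538 ± 640.5), which encodes a hepatocyte transcription factor. Their mean r was 0.113 with Cyp2e1 and 0.057 with Cyp1a2. Cebpa, named after its values were seen, ran against Ctnnb1 with r = -0.98 and rho = -1, and its signals kept to a narrow range of 10470 to 12403.

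Of the 13 regulators, 5 had an r above 0 with Cldn2, and the mean r was 0.111. Among them, 3 were also lowest on replicate 4, where Cldn2 was lowest. Hnf4a had 639 there, against 903 to 1644 on the other arrays, and Rxra had 664, against 1088 to 1644. Foxa1, a forkhead factor gene, had 172 there, against 204 to 290 on the other arrays. Their r with Cldn2, singled out after the values were seen, was 0.827, 0.951 and 0.820, and without replicate 4 it was 0.382, 0.769 and 0.589. Others went the opposite way, as Cyb5r3, which encodes a reductase of cytochrome b5, was highest on replicate 4 with 8481 (r = -0.89 with Cldn2), and so was Pgrmc1 with 11216 (r = -0.46). Ppara had 2909 on that array, against 1073 to 3336 on the other arrays. Of all tested genes 14.9% were lowest on replicate 4. Scaling brings the arrays to a common level, which limits how far such a share can depart from that of other arrays. It therefore cannot decide whether the array itself had a part in these low values, and that part was not tested.

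For each pericentral gene the 3 tested genes with the highest r were picked out of 4480, as a description with no test. Oat was nearest to Sncg (0.967), Usp24 (0.921) and Cyp2b13 (0.920). Cyp1a2 was nearest to Prdx2 (0.961), which encodes a peroxiredoxin, Ppp1r7 (0.958) and Itih2 (0.958). Cyp2e1 was nearest to the apolipoprotein genes Apoc1 (0.991), Apoe (0.988) and Apoh (0.980), and with quantile normalization Apoh had 0.0995. None of these 9 genes is among the 7 or on the pericentral list.

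Glul by its brighter probe set was nearest to Erlin1 (0.984), Igsf10 (0.971) and Pigs (0.970), and all 3 were lowest on replicate 2. Ahr was nearest to Gna13 (0.977), Matk (0.964) and Elf4 (0.945), all lowest on replicate 6. Ctnnb1 was nearest to Prkar1a (0.978), which encodes a regulatory subunit of protein kinase A, Nr5a1 (0.958) and Ugt2b34 (0.950).

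Cldn2 was nearest to Lcat (0.995), which encodes the plasma enzyme that esterifies cholesterol, Fam13b (0.975) and Nomo1 (0.953). Without replicate 4 Lcat had 0.963 and Nomo1 0.545. Lcat had 6553 on replicate 4 and 8960 to 10897 on the other arrays. An r of at least 0.75 in size was reached by between 3.84% (Ctnnb1) and 6.61% (Glul) of all tested genes, near the 5.55% of all pairs, so high values in a search over 4480 genes were common for each of the 7.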

How the data were processed

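Total liver RNA was measured on 1-colour Affymetrix mouse U74Av2 arrays with a GeneArray scanner of Hewlett-Packard, as the labels say. The authors deposited 1 linear intensity per probe set and array, already scaled, since the mean after trimming 2% at each end was 500.36 to 500.39 on every array. Their software is not given in the sources used here, nor is its scaling target. Precision is limited by the number of arrays.

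Platform annotation gave 10833 of 12488 probe sets a single gene symbol, controls (66) left out. Each array was set to the same trimmed mean, signals under 0.1 of it (50.04) were raised to that floor, and log2 was taken. The brightest probe set stood for a gene, and a gene was tested where its mean reached 0.4 of the trimmed mean. Signals in the text are scaled values before the floor.

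Spread was tested with an intercept-only limma fit (3.58.1, R 4.3.3) across all 4481 genes, with a robust prior that follows the level (5.61 degrees of freedom), an F test of the upper tail, and p-values adjusted by Benjamini-Hochberg at 0.05. Pairs were tested by exact permutation of Pearson's r and Spearman's rho. Python 3.11.15, numpy 2.4.6, pandas 2.3.3, scipy 1.17.1 and matplotlib 3.10.9 were used, and both steps were tested on simulated data. Promoters are those of RefSeq on GRCm38.p6. The arrays name no genome build.

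The members and lists were chosen with earlier results of these data known. Genes were named by rule: the 7 members, the 3 genes most correlated with each, up to 4 of the highest level and 2 of the largest SD in each list, and Arnt as a partner of Ahr. Other genes are marked as named after their values were seen. Settings of scaling, floor, filter, probe set, prior and array were varied as alternatives.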

Additional observations from a re-analysis of the deposited data

Results flagged for a closer look

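Of 104 probe sets of named genes, 14 had 1 array whose distance to the nearest other, on the log2 scale after the floor, exceeded Dixon's limit for 7 values. Chance flags about 1 in 20, and 6.29% of all 4481 tested genes were past the limit. Many of the 104 were named for a large SD or for their likeness to a gene with 1 outlying array, so the number is not to be read against those shares. No explanation was tested.

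Among the pericentral genes, Cldn2 had 71.8 on replicate 4, against 315 to 688 on the other arrays. The second Oat probe set had 64.7 on replicate 6, the single array above the floor, so the floor sets its distance. Before the floor and on the linear scale its distance was 0.373 of the range, and that of Cldn2 was 0.394. These 2 values are not set against the limit, which was used on the log2 scale.

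On replicate 4, Lcat had 6553, Fam13b 267.4 and Nomo1 2505, the 3 genes nearest to Cldn2, and Slc7a2, an amino acid transporter gene, had 399.6. On the other arrays the lowest values were 8960 for Lcat, 332 for Fam13b, 3399 for Nomo1 and 865 for Slc7a2. On replicate 2, Igsf10 had 213.2 and Pigs 572.3, both near Glul in pattern, and the biliary keratin gene Krt19 had 65.8, its single value above the floor, so the floor sets its distance as well. Elf4, near Ahr in pattern, had 186.6 on replicate 6, against 312 or more elsewhere.

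Csad had 1185 on replicate 7, against at most 567 elsewhere. Cyp17a1 had 766.6 on replicate 3, where Oat and Cyp2e1 were highest, against 2085 or more. In the tight junction list, Cldn3 had 2154 on replicate 1, against at most 1646, and Tjp1 had 359.4 on replicate 8, against 542 or more.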

How the results depend on the processing

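No paired analysis was possible because all samples form 1 group. Under 20 alternatives (scaling, floor, filter, probe set choice, prior, correlation measure, set means, each array left out), 0 of 7 genes passed the adjusted limma test of spread, with 0 to 1 at an unadjusted p under 0.05 and a smallest adjusted p of 0.207. In the 20 alternatives for pairs, 0 passed, with 0 to 3 at an unadjusted exact permutation p under 0.05. The smallest adjusted p was 0.1125, for Cyp2e1 and Cldn2 with set means removed (r = 0.943, against 0.181 before). With set means removed, values were permuted over all pairings and not within each set. The permutation p-values of that alternative are therefore not exact. The mean r over the pairs ran from 0.0089 without replicate 3 to 0.193 with set means removed. Of 21 pairs, 6 kept their sign in all alternatives, among them Oat and Cyp1a2, whose lowest r was 0.530 with the mean of all probe sets. A filter at 0.8 of the trimmed mean left Cldn2 out. The second Glul probe set as an alternative was chosen after seeing the data. With 7 arrays, a moderate correlation cannot be told from none.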
